A study of Saccharomyces cerevisiae S288C with 6 samples.

Results

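The genes for the RNA exosome, the complex that degrades and trims RNA from its 3′ end, were followed in budding yeast with and without LTV1. The members were the 10 genes RRP4, RRP40, CSL4, RRP42, RRP43, RRP45, RRP46, MTR3, DIS3 and RRP6, found by name among 7126 rows of the deposited table, and 10 of 10 passed the filter on low values. SKI6, which encodes the remaining ring subunit (also called Rrp41), was not among them and is given beside them. Of the 6 libraries, 3 were labelled as a homozygous LTV1 deletion (strain EDS615) and 3 as wild type (strain EDS76), both in the S288C background. LTV1 encodes an assembly factor of the small ribosomal subunit, and the series asks what changes when it is lost. All cultures grew in the rich medium YPD at 30 °C until the optical density was 0.5 to 0.6, and polyadenylated RNA was sequenced as 3′ end tags. The labels do not give the deleted part, the number of clones, or whether replicates were cultures of their own, so p-values here measure the spread between these libraries, which may be technical.

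As background, the exosome is a barrel. A ring of proteins related to bacterial RNase PH, Ski6 with Rrp45, Rrp42 with Mtr3 and Rrp43 with Rrp46, carries a cap of RNA-binding proteins, Rrp4, Rrp40 and Csl4. The yeast ring has lost its catalytic sites, and RNA is cut by Dis3, bound at the bottom of the barrel, and in the nucleus also by Rrp6 at the top. The nuclear complex matures ribosomal RNA of the large subunit, removes spacer fragments of the ribosomal RNA precursor, trims small nucleolar RNAs and destroys cryptic transcripts. The cytoplasmic complex degrades messenger RNA with the help of the Ski proteins.

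Between 1002573 and 1248710 whole reads per library were recovered from the deposited values, and 1 read was worth 0.914 to 1.07 normalized counts. LTV1 itself went against the labels: its normalized count was 680, 3.22 and 6.40 in the libraries labelled ltv1 deletion 1, 2 and 3, and 29.2, 191 and 8.77 in those labelled wild type 1, 2 and 3. The ltv1 deletion 1 library was highest and wild type 3 was among the low ones, so the groups overlapped (limma adjusted p = 0.886). A 3′ tag from outside the deletion checks nothing, and the extent is unknown. All directions below follow the labels, and counts are also given without these 2 libraries. Wild type 1 stood furthest out on the first principal component (59.43, against 15.5 and 27.88 for wild type 2 and 3 and -38.65 to -28.53 for the deletion libraries). Summed counts of haploid-specific genes, which a diploid represses, were 34.7 to 67.7 in the libraries labelled ltv1 deletion and 79.1 to 164 in those labelled wild type, and their part in the results was not tested. STE4 alone held most of that gap (39.0 ± 12.2 in ltv1 deletion and 90.5 ± 32.6 in wild type, SD, n = 3 each; limma adjusted p = 0.0618), and the other 5 genes overlapped between groups. The a-specific and alpha-specific lists summed to 50.3 to 61.0 and 14.6 to 15.0, against 50.7 to 77.7 and 9.37 to 26.2, and overlapped.

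The upstream sequences of 7 members are shown first, because the members differed in a pair of promoter motifs known from yeast genes of ribosome assembly. These are PAC, searched as GATGAG, and RRPE, searched as AAAATTTT, each on both strands in the 250 bases before the start codon. The stretches below are from the RefSeq R64 genome, 5′ to 3′ on the strand of the gene, with motif matches in capitals and 10 bases on either side. CTCATC is PAC read on the other strand. In MTR3 a pair of PAC matches overlaps by a base.
CSL4 (chrXIV:214812-214837, plus strand): attcactgatGATGAGcttatggtac
RRP43 (chrIII:193062-193087, minus strand): caaattagacGATGAGtattgttaca
MTR3 (chrVII:806197-806227, minus strand): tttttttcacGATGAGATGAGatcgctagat
DIS3 (chrXV:285519-285557, minus strand): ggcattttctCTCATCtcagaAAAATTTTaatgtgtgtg
RRP4 (chrVIII:234762-234787, minus strand): tggattgagcGATGAGgtgaaaaaaa
RRP40 (chrXV:55510-55535, plus strand): gcttcagcagCTCATCtccagcattt
RRP6 (chrXV:326733-326760, plus strand): agggcatcggAAAATTTTtcagtaatga
The windows of RRP42, RRP45 and RRP46 held neither run of letters. PAC was found in 6 of 10 members, against 17% of 6001 protein-coding genes with a full window, and RRPE in 2 of 10, against 8.65%.

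All 10 members were higher in every library labelled ltv1 deletion than in any library labelled wild type. Over all 5663 genes tested, 21.6% were higher without overlap in this way. CSL4, MTR3, DIS3 and RRP43 passed limma's test (Benjamini-Hochberg adjusted p under 0.05 over all genes), that is 4 of 10, beside 8.88% of all genes called higher, and none was lower. At an unadjusted p under 0.05, 9 of 10 were higher, beside 17.8% of all genes. The mean normalized counts of the 4 were 2.44, 2.85, 1.98 and 1.96 times those of the libraries labelled wild type. The median log2 fold change of the 10 was 0.81, against -0.02 over all genes tested, on the log2(value + 1) scale and as ltv1 deletion minus wild type. With edgeR's quasi-likelihood test on recovered reads these same 4 members were called, beside 10.5% of all genes called higher.

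**Figure D1:**
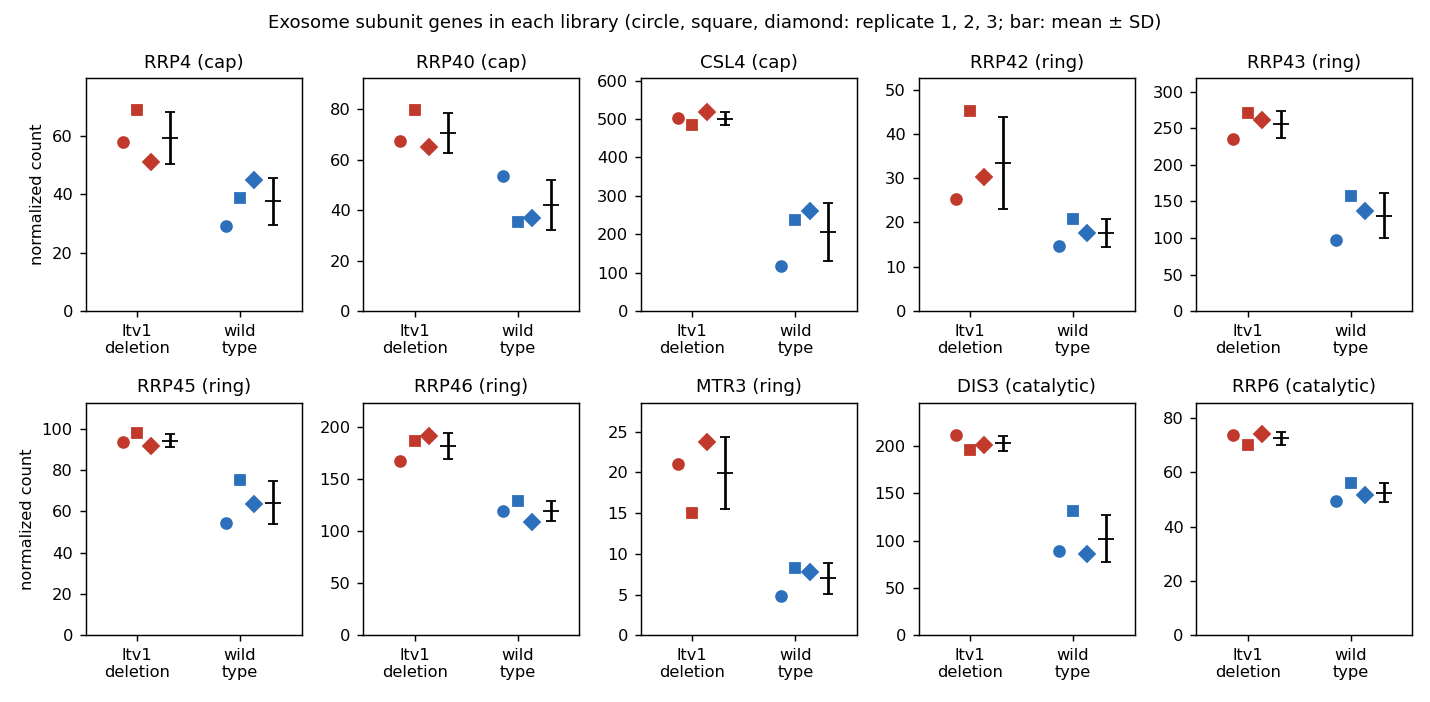
Normalized counts of the 10 exosome subunit genes (vertical axes, linear, from 0) in the 3 libraries labelled ltv1 deletion (red, left) and the 3 labelled wild type (blue, right), with mean ± SD. In each panel the 3 red points lie above the 3 blue points, with the widest relative gaps of the 10 in CSL4 and MTR3 (lowest red over highest blue, 1.86 and 1.81).

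Of the cap genes, CSL4 (YNL232W, chrXIV:214923-215801) encodes a cap subunit that Rrp6 contacts. It had 501, 484 and 518 normalized counts in ltv1 deletion 1, 2 and 3, and 119, 236 and 260.2 in wild type 1, 2 and 3. The deletion libraries were close together and wild type 1 was lowest, so the group means were 501 ± 17.2 and 205 ± 75.9 (SD, n = 3 each). The log2 fold change was 1.36 (95% interval 0.61 to 2.12, limma adjusted p = 0.0301). Without wild type 1 it was 1.01, still past the threshold with an adjusted p of 0.0328.

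RRP4 (YHR069C, chrVIII:233579-234658) and RRP40 (YOL142W, chrXV:55558-56280) encode the other cap proteins, which bind RNA through S1 and KH domains. RRP4 had 57.8, 68.8 and 51.2 normalized counts in ltv1 deletion 1, 2 and 3, against 29.2, 38.5 and 44.8 in wild type 1, 2 and 3. Its groups lay close, with the lowest deletion library 1.14 times the highest wild type library, and the log2 fold change of 0.66 missed the threshold (95% interval 0.08 to 1.24, limma adjusted p = 0.110). RRP40 had 67.3, 79.5 and 64.9 in ltv1 deletion 1, 2 and 3, against 53.5, 35.4 and 37.0 in wild type 1, 2 and 3. Here wild type 1 was the highest of its group, unlike in CSL4 and RRP4, and the log2 fold change of 0.75 also missed (95% interval 0.18 to 1.32, limma adjusted p = 0.0746). Without wild type 1 RRP40 passed at 0.94 (limma adjusted p = 0.0444).

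Among the ring genes, RRP43 (YCR035C, chrIII:191834-193018) had 235, 271 and 261 normalized counts in ltv1 deletion 1, 2 and 3, against 97.2, 157 and 137 in wild type 1, 2 and 3. The group means of 256 ± 18.3 and 131 ± 30.6 (SD, n = 3 each) gave a log2 fold change of 0.99 (95% interval 0.41 to 1.57, limma adjusted p = 0.0356). Its ring partner RRP46 (YGR095C, chrVII:675671-676342) had 167, 186 and 191, against 119.5, 129 and 109. The groups were apart by 1.29 times at the nearest libraries, but the log2 fold change of 0.60 did not pass (95% interval 0.12 to 1.08, limma adjusted p = 0.0846).

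MTR3 (YGR158C, chrVII:805269-806021) had the highest fitted log2 fold change of the 10, 1.40 (95% interval 0.74 to 2.05, limma adjusted p = 0.0211), and the fewest reads. It had 21.0, 15.0 and 23.8 normalized counts in ltv1 deletion 1, 2 and 3, from 20, 14 and 26 reads, against 4.86, 8.33 and 7.80 in wild type 1, 2 and 3, from 5, 8 and 8 reads. These counts set the precision, since the floor of 3 reads is worth 2.74 to 3.22 normalized counts. With a pseudocount of 5 in place of 1, the value was 1.05. Its ring partner RRP42 (YDL111C, chrIV:263313-264110) had 25.2, 45.1 and 30.2, against 14.6, 20.8 and 17.5, from 99 and 53 reads in all. Its spread was widest in the deletion libraries, and the log2 fold change of 0.86 missed the threshold (95% interval 0.21 to 1.51, limma adjusted p = 0.0753).

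RRP45 (YDR280W, chrIV:1020747-1021664), the partner of Ski6, had 93.6, 97.8 and 91.4 normalized counts in ltv1 deletion 1, 2 and 3, against 54.4, 75.0 and 63.4 in wild type 1, 2 and 3, with a log2 fold change of 0.56 that did not pass (95% interval 0.05 to 1.06, limma adjusted p = 0.117). SKI6 (YGR195W) had 101, 111 and 103, against 75.8, 66.7 and 107. Unlike the 10 members its groups overlapped, because wild type 3 was above ltv1 deletion 1 and 3, and its log2 fold change was 0.36 (95% interval -0.21 to 0.93, limma adjusted p = 0.327).

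Of the nuclease genes DIS3 passed and RRP6 did not. DIS3 (YOL021C, chrXV:282421-285426), which encodes the exonuclease and endonuclease of the complex, had 211, 196 and 201 normalized counts in ltv1 deletion 1, 2 and 3, against 89.4, 131 and 85.8 in wild type 1, 2 and 3. With group means of 203 ± 7.96 and 102 ± 25.3 (SD, n = 3 each), its log2 fold change was 1.01 (95% interval 0.45 to 1.57, limma adjusted p = 0.0306). RRP6 (YOR001W, chrXV:326832-329033), the nuclear exonuclease, had 73.6, 69.9 and 74.0, against 49.6, 56.2 and 51.7. Its groups were tight and apart, at 72.5 ± 2.28 and 52.5 ± 3.41 (SD, n = 3 each), but the change was small. The log2 fold change of 0.46 did not pass (95% interval -0.0047 to 0.92, limma adjusted p = 0.148), and RRP6 had the lowest value of the 10. The intervals of all 10 members overlap each other, so differences in size among them are not shown.

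Taken one by one over samples, each member gave an exact two-sided permutation p of 0.1, the smallest that 3 libraries against 3 allow. The calls depended on single libraries. Without ltv1 deletion 1, 2 or 3 the members past the threshold numbered 0, 1 (MTR3) and 0, beside 1.77%, 1.75% and 0.177% of all genes called higher. At an unadjusted p under 0.05 these fits had 7, 4 and 7 members higher, beside 14.3%, 14.4% and 13.2% of all genes. Without wild type 1, 2 or 3 the members past the threshold numbered 3 (RRP40, CSL4 and MTR3), 4 and 2 (CSL4 and MTR3), beside 6.64%, 9.36% and 5.86% of all genes called higher. Leaving out 1 library in turn, the log2 fold changes ranged from 1.01 to 1.57 for CSL4, 0.90 to 1.20 for DIS3, 1.19 to 1.58 for MTR3 and 0.79 to 1.14 for RRP43, with adjusted p up to 0.0998, 0.0998, 0.0774 and 0.115. Without wild type 3 and ltv1 deletion 1 together limma called 0 members, beside 0.212% of all genes called higher. In that fit 5 members were higher at an unadjusted p under 0.05, beside 13.2% of all genes, all 10 log2 fold changes were above 0 and their median was 0.84.

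Summed over the 10 genes, exosome subunits took 0.128%, 0.130% and 0.137% of the reads of ltv1 deletion 1, 2 and 3, and 0.0520%, 0.0851% and 0.0705% of those of wild type 1, 2 and 3. Their 95% Wilson intervals, which cover counting error only, reached down to 0.122% in the deletion libraries and up to 0.0910% in the wild type libraries. The summed normalized count was 1491 ± 32.3 in the deletion libraries and 778 ± 133 in the wild type libraries (SD, n = 3 each), a ratio of 1.92. In bulk RNA, more RNA per cell and a larger share of cells with the RNA cannot be told apart. As log2 deviations from their own 6-library means, the members averaged 0.38, 0.48 and 0.43 in ltv1 deletion 1, 2 and 3, and -0.65, -0.26 and -0.39 in wild type 1, 2 and 3. Across the 6 libraries the members' log2 values correlated with each other with a median Pearson r of 0.90 over 45 pairs (0.58 to 0.99), a figure that holds the difference between groups and shared library effects.

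**Figure D2:**
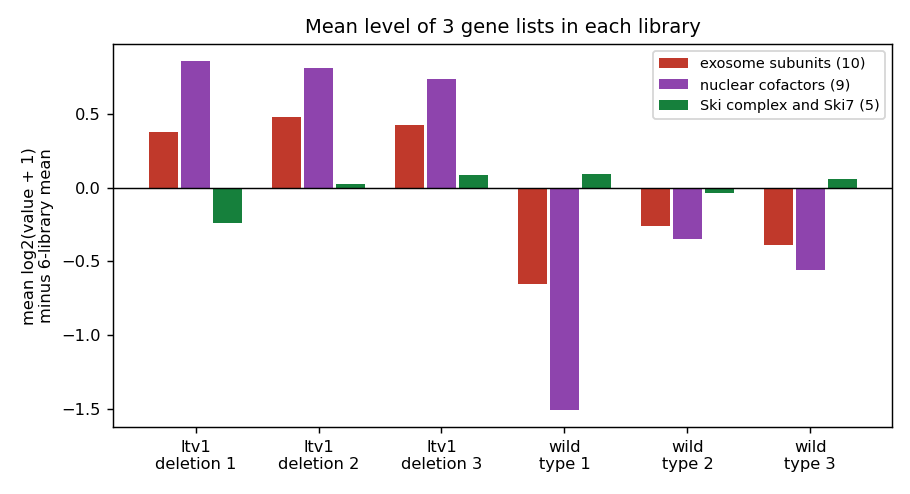
Mean log2(value + 1) of the 10 exosome subunits, 9 nuclear cofactors and 5 Ski genes in each library, relative to the mean of the same genes over the 6 libraries (vertical axis). Exosome subunits and nuclear cofactors were above 0 in all 3 deletion libraries and lowest in wild type 1 (-0.65 and -1.51), and the Ski genes stayed between -0.24 and 0.10.

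The genes of nuclear exosome cofactors, which bring RNA to the complex, moved the same way as the subunits. Of the 9 in the list 7 rose and 0 fell, beside 8.88% and 6.98% of all genes, with a median log2 fold change of 1.90. MTR4, the helicase that threads RNA into the nuclear exosome, had 479, 548 and 472 normalized counts in ltv1 deletion 1, 2 and 3, against 62.2, 187 and 116 in wild type 1, 2 and 3. The lowest deletion library was 2.52 times the highest wild type library, and the log2 fold change was 2.16 (95% interval 1.26 to 3.06, limma adjusted p = 0.0174). UTP18 and NOP53 encode proteins of ribosome precursors that recruit Mtr4, and rose by 1.98 and 2.03 on the log2 scale. LRP1, also called Rrp47, binds Rrp6, and rose by 1.90, while RRP6 had 0.46. MPP6, another nuclear cofactor gene, rose by 1.15.

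The polyadenylation complex TRAMP, which marks nuclear RNA for the exosome, holds Mtr4, a poly(A) polymerase (Trf4, gene PAP2, or Trf5) and a zinc-knuckle protein (Air1 or Air2). These genes were compared after their values were seen. TRF5 had 83.0, 66.6 and 62.1 normalized counts in ltv1 deletion 1, 2 and 3, against 5.83, 19.8 and 23.4 in wild type 1, 2 and 3 (log2 fold change 2.23, 95% interval 1.14 to 3.33). PAP2 had 281, 307 and 292, against 149.7, 195 and 211 (0.68, interval 0.15 to 1.20, limma adjusted p = 0.0785). AIR1 had a log2 fold change of 1.89 (interval 0.88 to 2.90) and AIR2 of 0.48 (interval -0.15 to 1.10, limma adjusted p = 0.242). Thus TRF5 and AIR1 passed and their paralogs did not; in both pairs the intervals overlap, and the difference was not tested. The nuclear cofactors that rose numbered 1, 1 and 0 without ltv1 deletion 1, 2 and 3, where 1.77%, 1.75% and 0.177% of all genes were called higher. They numbered 7 without wild type 1, 2 or 3 (6.64%, 9.36% and 5.86% of all genes), and 0 without wild type 3 and ltv1 deletion 1 together (0.212%).

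**Figure D3:**
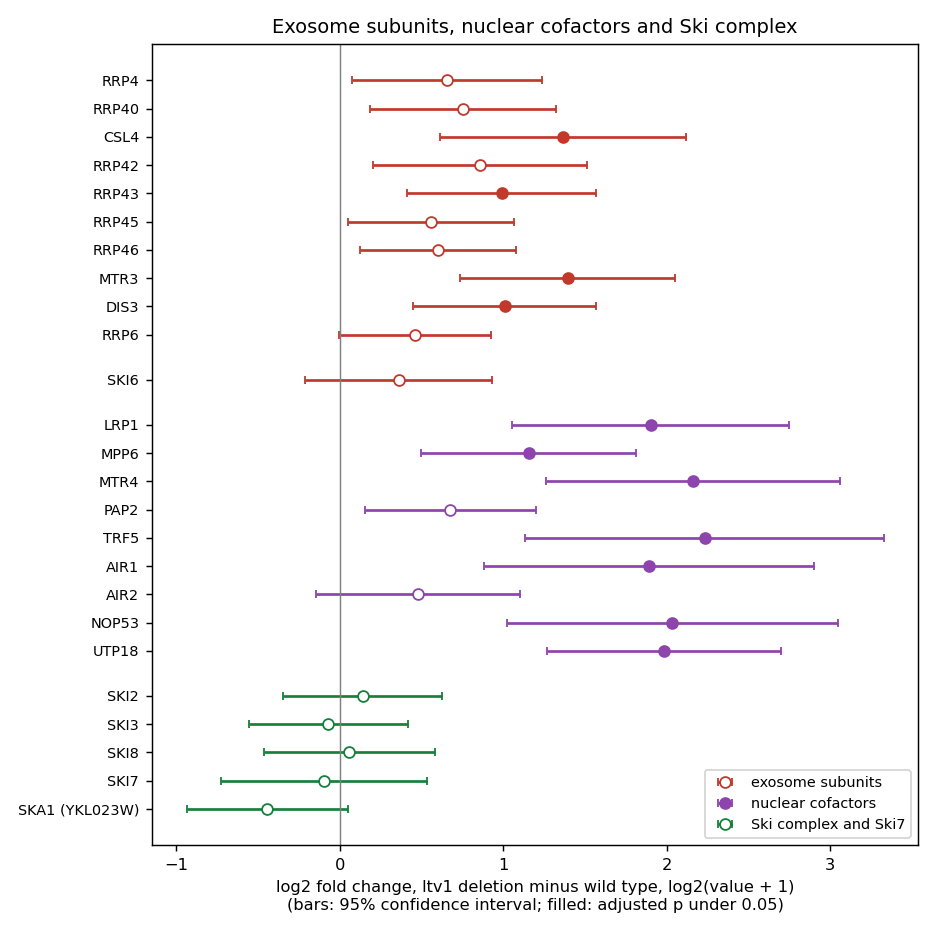
Log2 fold changes, ltv1 deletion minus wild type (horizontal axis), with 95% confidence intervals for exosome subunits and SKI6 (red), nuclear cofactors (purple) and Ski genes (green); filled points passed an adjusted p of 0.05. The exosome subunits lie between 0.46 and 1.40, 7 of 9 nuclear cofactors are filled, and the Ski genes lie between -0.44 and 0.14.

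No difference past the threshold was found for the cytoplasmic partners. Of the 5 genes of the Ski group 0 rose and 0 fell in limma, edgeR and DESeq2 alike (0 in limma at an unadjusted p under 0.05), and the median log2 fold change was -0.07. SKI2, the helicase, had 244, 283 and 281 normalized counts in ltv1 deletion 1, 2 and 3, against 251, 221 and 262 in wild type 1, 2 and 3, and its groups overlapped (log2 fold change 0.14, 95% interval -0.35 to 0.62). SKI3, SKI8 and SKI7, the scaffold, the WD-repeat subunit and the bridge to the exosome, had -0.07, 0.06 and -0.10. SKA1 (YKL023W), a Ski-associated factor, had the smallest limma adjusted p of the group, 0.181, at -0.44. It was lower without overlap, at 29.4, 32.2 and 37.5 in ltv1 deletion 1, 2 and 3, against 41.8, 47.9 and 45.8 in wild type 1, 2 and 3. Of all 5663 genes tested, 1134 were lower without overlap. The largest upper bound among the 5 intervals was 0.62. Among the members only the interval of MTR3, which had the fewest reads, starts above it, at 0.74. The intervals of all other members, that of CSL4 from 0.61 among them, overlap the interval of SKI2. A difference of these members from SKI2 is thus not shown, and differences between members and Ski genes were not tested.

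The other RNA decay genes were read by list, beside 8.88% of all genes called higher and 6.98% called lower by limma. Of 15 decapping genes and 10 deadenylation genes, limma called 0 and edgeR 1. At an unadjusted p under 0.05 in limma, 0 were higher and 3 lower, beside 1006 higher and 957 lower of all 5663 genes tested. Over all genes edgeR called 595 higher and 524 lower. The medians of these lists were 0.07 and -0.21. LSM6 had -0.79 (limma adjusted p = 0.0785), and the poly(A) nuclease gene PAN3, the one edgeR called, had -0.93 (limma adjusted p = 0.0753, edgeR 0.0470). DESeq2 also called PAN3 lower (DESeq2 adjusted p = 0.0405), beside 578 of all genes. With a minimum mean of 50, limma called LSM6 (limma adjusted p = 0.0475) and PAN3 (0.0467) lower, beside 393 of 3331 genes. Of 5 ribosomal RNA precursor endonuclease genes 3 rose: RNT1, the yeast RNase III, at 2.50, NOB1, which makes the final cut of small-subunit RNA, at 2.54, and RCL1 at 1.74. Of 5 genes of the Rex nucleases and Ngl2 only REX4 rose, at 2.34, from 54 reads in the deletion libraries and 9 in the wild type libraries.

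Of 3 genes of the Nrd1-Nab3-Sen1 complex, which ends short nuclear transcripts and hands them to the exosome, SEN1 rose at 0.98, while NRD1 and NAB3 had 0.90 and 0.70 (limma adjusted p = 0.110 and 0.122). Of 4 genes for 5′ to 3′ decay only DXO1, a decapping exonuclease, rose, at 1.07, and RAT1, the nuclear exonuclease, had 1.17 (limma adjusted p = 0.0549, edgeR 0.0339). Of the 2 genes of the mitochondrial degradosome neither passed, and SUV3, its helicase, had 0.76 (limma adjusted p = 0.0859). Beside these counts stand the 8.88% of all genes that limma called higher and the 6.98% called lower. Leaving out single libraries ended calls here too, as SEN1 and DXO1 each passed in 1 of the 6 fits, NOB1 and RCL1 in 3, and RNT1 and REX4 in 5. Without wild type 3 and ltv1 deletion 1 together, 0 of the 59 genes of all related lists passed, beside 0.212% of all genes called higher.

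Set against the motifs, the 4 members past the threshold, CSL4, MTR3, DIS3 and RRP43, were all among the 6 with a PAC match, and 0 of the 4 without one passed in this fit. With a minimum mean of 50 for testing, RRP46, which has no match, also passed (limma adjusted p = 0.0477, range over its alternatives 0.0477 to 0.255). The members with PAC had a median log2 fold change of 1.00 (0.66 to 1.40), and those without, RRP42, RRP45, RRP46 and RRP6, of 0.58 (0.46 to 0.86), so the ranges overlap. The motifs were chosen with these values known, and no test was made. Over all tested genes with a window, 28.5% of 903 with PAC were called higher and 3.99% lower, against 4.25% and 7.83% of 4472 without. The shares, taken only from the fit with all 6 libraries, depended on RRPE as well. CSL4, MTR3, RRP43, RRP4 and RRP40 have PAC without RRPE, and of the 664 tested genes of that class 16.7% were called higher, close to the 15.8% of the 260 with RRPE without PAC, the class of RRP6. DIS3 has both motifs, and of the 239 tested genes with both 61.1% were called higher and 0 lower. With neither motif, as for RRP42, RRP45 and RRP46, 3.54% were called higher. PAC was also found before 6 of the 9 nuclear cofactor genes and 1 of the 5 Ski genes. A match is a run of letters and shows no binding.

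**Figure D4:**
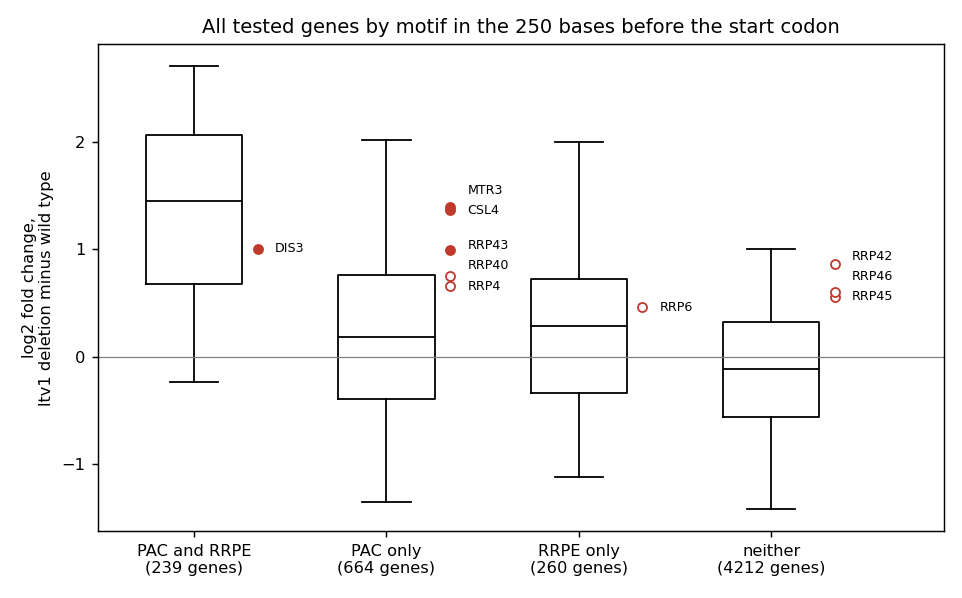
Log2 fold changes of all tested genes with a full upstream window, by motif class (boxes: quartiles and median; whiskers: 5th to 95th percentile), with the exosome subunits as red points, filled where the adjusted p was under 0.05. Medians are 1.46 for both motifs, 0.18 for PAC alone, 0.28 for RRPE alone and -0.12 for neither, and the filled points stand in the PAC classes.

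Because 3′ tags of facing genes lie close, the gene beyond the 3′ end of each member was examined. No source used here states the strand that was counted. No annotated gene overlapped a member. RRP42 faces TRM3, a tRNA methyltransferase gene, across 87 bases, and TRM3 was higher at 677 ± 46.0 normalized counts in the deletion libraries and 242 ± 48.3 in the wild type libraries (SD, n = 3 each; limma adjusted p = 0.0140), 2.80 times as high; its part in the RRP42 value was not tested. Beyond MTR3, across 219 bases, CHO2 moved the other way (-1.25, limma adjusted p = 0.0224). ALG6, beyond RRP6, also fell (-0.99, limma adjusted p = 0.0331). Beyond CSL4 and RRP43, PDR16 and ELO2 had -0.63 and -0.47, and beyond RRP4, RRP40 and RRP46, DYS1, PPM2 and VAS1 had 0.22, 0.68 and 0.54; none of these passed. PHM6, beyond RRP45, had 5 reads in each group. The tRNA gene SUF17, beyond DIS3, was not analysed here.

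Among 3324 other genes with a mean of at least 50 normalized counts, those whose log2 values over the 6 libraries were most like the mean of the members were RET1 (Pearson r = 0.999), a subunit gene of RNA polymerase III, CMS1 (0.999), SQT1 (0.998), which encodes a chaperone of a large-subunit ribosomal protein, the Elongator gene ELP2 (0.998) and UTP18 (0.997). RET1 had 284, 302 and 292 normalized counts in ltv1 deletion 1, 2 and 3, against 116, 169 and 144 in wild type 1, 2 and 3. Like 7 of the 10 members, RET1 was lowest in wild type 1. These genes were kept for their high r over only 6 libraries, a figure that also holds the difference between groups.

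In the authors' deposited table, 0 of the 10 members were classed as significant, beside 1.57% of the 5472 genes with an adjusted p. Their log2 fold changes in the authors' deposited table were all above 0, from 0.32 for RRP6 to 0.83 for CSL4, and each had an adjusted p of 1. What these p-values test is not stated. Exactly 1 was the value of 52.1% of all p-values in the authors' deposited table. DIS3 had an unadjusted p of 0.129 in the authors' deposited table beside a log2 fold change of 0.82 with an SE of 0.28, so the p-values are not read here as tests against no change. In the authors' deposited table MTR3 stood at 0.80 with a standard error of 0.58 and RRP43 at 0.53 with 0.42. The direction was thus as in the libraries for each member, and the sizes were smaller than those fitted here.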

How the data were processed

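The authors deposited one table with a normalized signal per gene and library (gene counts divided by a size factor), a log2 fold change with its standard error, a p-value and an adjusted p-value. Per the submitters' processing notes, which give no roles, build R64 was used with R 4.1.3, DESeq2 1.34.0, Salmon, STAR, Trim Galore and FastQC; the sources used here state no settings, strand or use of molecular identifiers. Divided by its smallest value above 0, each library gave whole numbers (within 0.01) for 100% of its values, so whole reads were recovered. In 94 rows the authors' mean level was above 0 with all 6 libraries at 0, so their fit held values not analysed here.

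Groups follow the titles. The test was limma 3.58.1 (R 4.3.3) on log2(value + 1), no trend, no robust option, for 5663 genes with a mean of at least 5, with Benjamini-Hochberg adjustment over all genes. The design had named this test for values divided by size factors. This scale understates changes of low genes. Alternatives were edgeR 4.0.16 (1119 genes called), DESeq2 1.42.0 (1207) and limma-voom (1065) on recovered reads, other scalings, filters and pseudocounts, a replicate block, and left-out libraries. The procedure was tested on simulated data, with counts drawn independently for each gene and library and no outlying library. That test thus does not cover the dependence of calls on single libraries. Exact permutation tests used scipy 1.17.1. Named genes are the members, LTV1, SKI6, up to 4 genes past the threshold per direction in each of 10 related lists (otherwise the one with the smallest adjusted p), the 5 most similar genes and the 3′ neighbours; others were added after their values were seen. Members and lists were chosen with earlier results of these data known. Coordinates and sequences are from the RefSeq R64 genome, 1-based; gene starts there are start codons.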

Additional observations from a re-analysis of the deposited data

How the results depend on the processing

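The direction of every exosome subunit was the same under all 18 alternatives, wherever it was tested. In 150 of 177 values for single subunits the side of the threshold was kept as well, 24 lost it and 3 gained it. Without a filter RRP43 did not pass (adjusted p = 0.0554, range over its alternatives 0.00497 to 0.137). With a mean of at least 50, 7 subunits were tested and 5 passed, RRP40 and RRP46 among them, beside 15.3% of all genes called higher in that fit. Leaving out 1 library or the named pair, subunits past the threshold ranged from 0 to 4, genes past it from 16 to 977, related genes from 0 to 13 and the subunits' median from 0.65 to 0.88. With the replicate block 0 subunits (6 at an unadjusted p under 0.05; edgeR without a block called 4), 430 genes and 7 related genes passed. Same-numbered libraries were not treated as pairs, as no label pairs them and their deviations correlated at -0.11, -0.20 and 0.07. The sign of LTV1 reversed to 1.59 with edgeR and 1.59 with DESeq2, and to 0.89, 0.48 and 0.69 without ltv1 deletion 2, ltv1 deletion 3 and wild type 2. Without wild type 3 and ltv1 deletion 1 it was -3.77, and it did not pass (adjusted p = 0.0962). The cause was not tested. Scalings moved the median of all genes by less than 0.1. Depth limits MTR3 and RRP42 most.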
